A study of Mus musculus with 9 samples.

Results

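Cytochrome P450 genes of families 1 to 4 were followed through liver regeneration in mice given vehicle or an SHP2 inhibitor. The members were all protein-coding genes of the count table whose symbol starts with Cyp, a family number from 1 to 4 and a subfamily letter, and they numbered 82 of 43346 genes. Family 1 held 3 members, family 2 held 50, family 3 held 9 and family 4 held 20. Of the 82 members, 64 had enough counts to be tested, within 15024 tested genes of the whole table. The other 18 are accounted for at the end.

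P450 enzymes are heme proteins, mostly of the endoplasmic reticulum, that insert an oxygen atom into drugs, pollutants, steroids and fatty acids with electrons passed on by P450 oxidoreductase. Hepatocytes carry most of the body's supply. Families 1, 2 and 3 act on many foreign compounds and steroids, and several of their genes answer to the receptors AHR, CAR and PXR. Family 4 enzymes hydroxylate fatty acids and eicosanoids, and the Cyp4a genes are classic targets of PPARα. Several mouse liver P450 genes differ between the sexes, and others are expressed mainly in hepatocytes near the central vein.

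Livers of wild-type C57/BL6 mice aged 12 weeks were profiled by RNA-Seq of poly(A) RNA, 3 libraries a group. All mice underwent 70% partial hepatectomy. The methods describe the mice as male. The baseline group was liver resected at surgery (0 h) from mice given vehicle, which was saline. The vehicle group was the liver remnant 40 h later in mice given vehicle, and the NSC group was the remnant at 40 h in mice given NSC-87877 (NSC), an inhibitor of the phosphatase SHP2, at 7.5 mg/kg per dose and 2 doses a day. The labels place the first dose 12 h before surgery, and the methods place it the day before. NSC inhibits SHP1 as well, so the NSC group is a model of this compound and not of SHP2 alone. Resected liver from NSC-treated mice was not analysed here, so the NSC group was compared with the same 3 baseline libraries as the vehicle group. The labels do not say which mouse gave which library, so p-values measure only the spread between these libraries, which may be partly technical.

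Library totals lay between 23997363 and 42887589 counts, at which 3 counts correspond to between 0.0751 and 0.117 CPM (counts scaled to sequencing depth). The hepatocyte markers (12 genes, among them Alb, Apoa1 and Ttr) held between 14.5% and 17.1% of all counts in each library. Libraries stood apart in both the NSC and the baseline group. NSC replicate 1 lay with the vehicle libraries on the second principal component of all tested genes, at -24.11 against -23.42, -19.73 and -10.28, while NSC replicates 2 and 3 lay at 26.28 and 41.17. Baseline replicate 2 had 81.0 CPM of Dbp, a clock-driven transcription factor, against 0.411 and 1.29 in baseline replicates 1 and 3 and at most 1.32 in the 40 h libraries. Whether NSC replicate 1 was labelled and dosed as stated was not tested, and every NSC mean and call includes it unless its omission is stated. Without baseline replicate 2, Cyp4f39 gained a call under vehicle and 6 members lost theirs (Cyp1a1, Cyp2a4, Cyp2g1, Cyp2j8, Cyp2s1 and Cyp4a31). Under NSC, Cyp3a25 gained a call and 4 members lost theirs (Cyp2a4, Cyp2a5, Cyp2d40 and Cyp4a31).

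At baseline a few very abundant transcripts dominated the P450 genes. Levels are given as FPKM, the deposited fragment values scaled by gene length and depth, since only values scaled by length can be compared between genes. Cyp2e1, which oxidizes ethanol and acetaminophen, had the highest mean at 2371.7 ± 463.0 FPKM (SD, n = 3). Cyp3a11, the main PXR-regulated drug-metabolizing P450 of mouse liver, followed at 2258.9 ± 714.9 FPKM, within the spread of Cyp2e1. Cyp2d9, a testosterone 16α-hydroxylase of male liver, came next at 921.0 ± 49.3 FPKM, then Cyp2c29 at 686.4 ± 77.7 and Cyp2f2 at 541.7 ± 59.1. The 10 most abundant members of each library held between 71.5% and 81.6% of its summed P450 FPKM.

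The P450 share of the transcriptome was smaller in every vehicle library than in any baseline library. Members summed to 2.84%, 2.41% and 2.48% of all FPKM at baseline and to 1.78%, 1.64% and 1.81% in the vehicle remnant. The NSC remnant held 1.9%, 2.34% and 2.71%, so that NSC replicate 1 was close to the vehicle libraries, replicate 2 was just below the baseline range and replicate 3 was within it. Family 2 did not overlap with baseline in either remnant, with 1.61% to 1.78% at baseline, 1.00% to 1.10% under vehicle and 1.08% to 1.28% under NSC. Family 3 held 0.459%, 1.04% and 1.27% in the NSC libraries, against 0.562%, 0.411% and 0.579% in the vehicle libraries. In bulk tissue, fewer hepatocytes and less RNA per hepatocyte cannot be told apart.

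**Figure D1:**
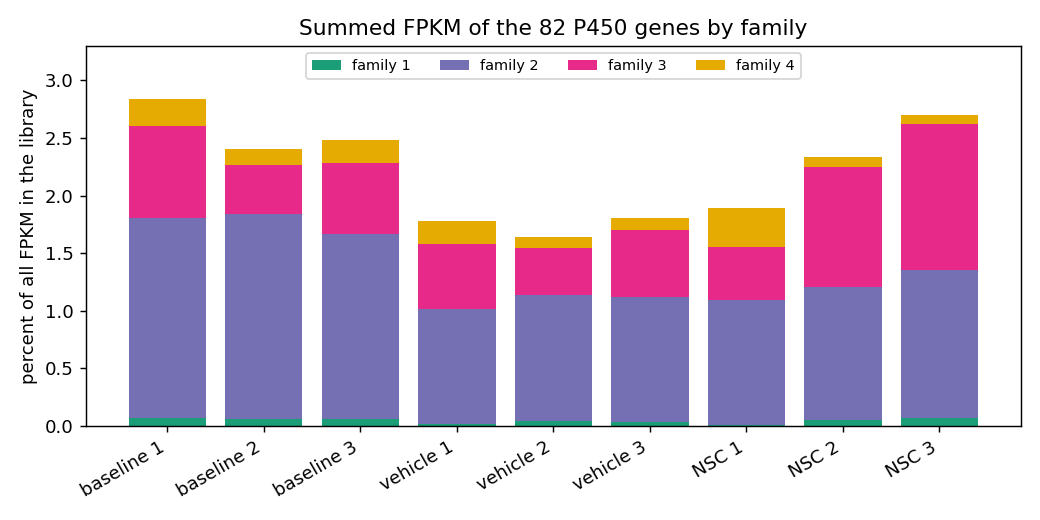
Stacked bars give the summed FPKM of the 82 P450 genes as a percent of all FPKM in each of the 9 libraries, colored by family. The 3 vehicle bars end between 1.64% and 1.81%, below all 3 baseline bars, and the family 3 portion is 0.459% in NSC replicate 1 but 1.04% and 1.27% in NSC replicates 2 and 3.

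At 40 h after partial hepatectomy a minority of P450 genes, several of the most abundant ones among them, stood lower than in resected liver. No sham-operated mice were among the samples, and the remnant consists of other lobes than the resected ones. Surgery, lobe, repeated dosing and time of day therefore cannot be told apart. In the vehicle remnant 22 of the 64 tested members fell and 4 rose against baseline (34.4% and 6.25%), where 11.0% of all tested genes fell and 12.7% rose (edgeR's quasi-likelihood test, adjusted p under 0.05). The median member had a log2 fold change of -0.49, against 0.01 for all genes. In the NSC remnant 20 members fell and 4 rose (31.2% and 6.25%), where 16.5% of all genes fell and 18.2% rose, and the median was -0.40 against 0.01. With an absolute log2 fold change over 1.5 required as well, 10 and 7 members fell, where 2.19% and 2.75% of all genes did. By non-overlap of normalized values, 25 members lay below baseline and 7 above it under vehicle (22.0% and 24.2% of all genes), and 23 lay below and 6 above under NSC (23.1% and 24.0%).

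Both comparisons use the same baseline libraries and are not independent. The 17 members that fell in both were Cyp2d9, Cyp2d10, Cyp2d11, Cyp2d12, Cyp2d22, Cyp2a4, Cyp2a5, Cyp2e1, Cyp2f2, Cyp2j9, Cyp4a12a, Cyp4a12b, Cyp4a32, Cyp4b1, Cyp4f13, Cyp4f15 and Cyp4v3. Those that rose in both were Cyp4f16 and Cyp4a31. Another 5 fell and 2 rose under vehicle alone by this threshold, 3 fell and 2 rose under NSC alone, and 33 passed in neither.

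**Figure D2:**
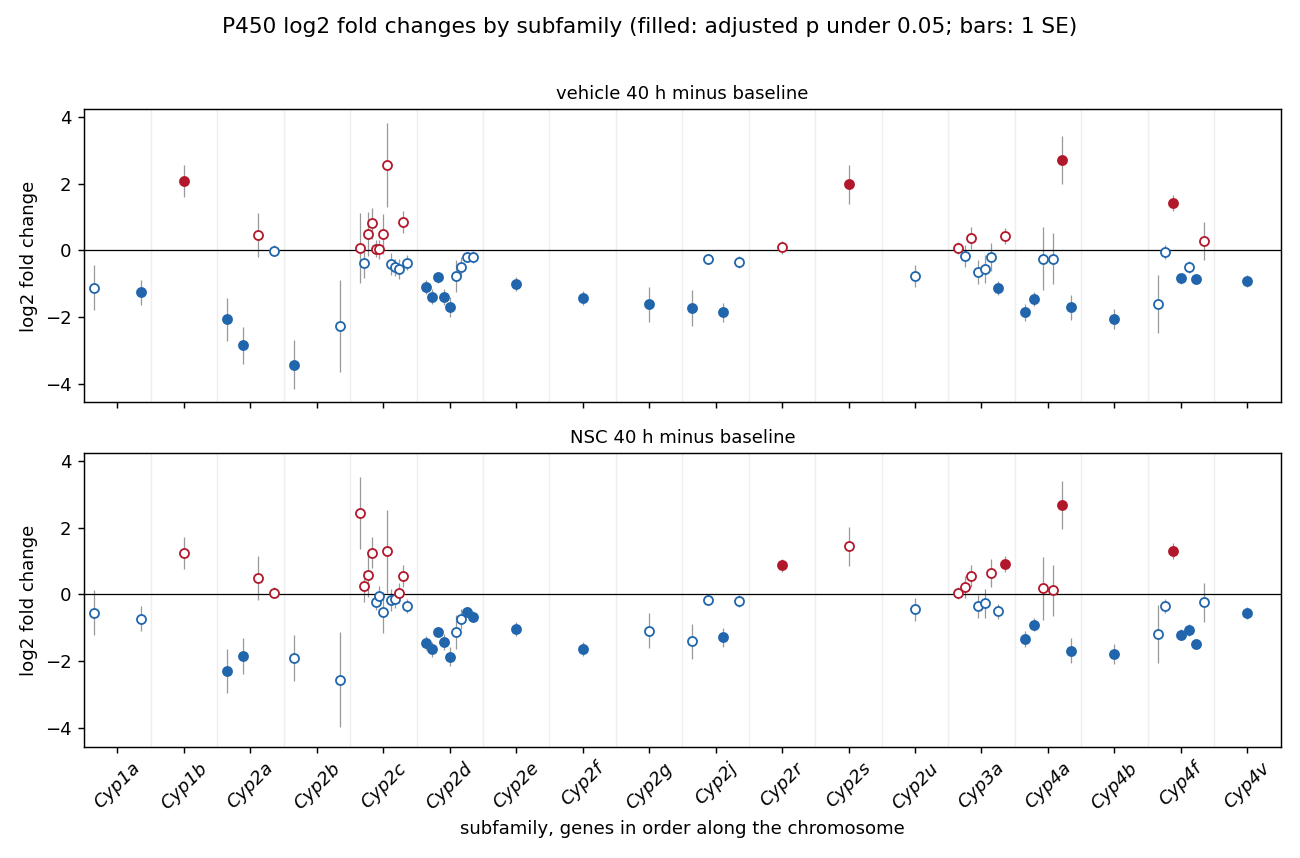
Each point is 1 of the 64 tested P450 genes, grouped by subfamily, with its log2 fold change against baseline and 1 SE, filled where the adjusted p was under 0.05. Every Cyp2d gene lies below 0 in both panels, no Cyp2c gene is filled in either, and Cyp4a and Cyp4f hold filled points on both sides of 0.

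The Cyp2d subfamily had more members that fell than any other. All 9 members were tested, all 9 had negative log2 fold changes in both remnants, and 5 fell under vehicle and 7 under NSC, with medians of -0.81 and -1.12. The 9 genes form 1 cluster at chr15:82370528-82794245 (GRCm38). Summed Cyp2d FPKM was 2131.1 ± 100.8 at baseline (SD, n = 3), 1195.0 ± 159.6 under vehicle and 1089.8 ± 85.0 under NSC.

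Cyp2d9 measured 939.0, 958.8 and 865.3 FPKM at baseline, 313.2, 433.4 and 289.7 under vehicle, and 288.4, 374.4 and 462.7 under NSC. Baseline did not overlap with either remnant, while the remnants overlapped with each other. The gene fell by 1.41 on the log2 scale under vehicle (SE 0.24, edgeR adjusted p = 0.00171) and by 1.43 under NSC (SE 0.24, adjusted p = 0.00104). Cyp2d10 measured 469.5, 486.7 and 491.4 FPKM at baseline, 290.3, 293.5 and 244.5 under vehicle, and 242.5, 223.8 and 266.6 under NSC, and it fell by 0.81 and 1.12. Cyp2d22, often compared with human CYP2D6, measured 85.4, 111.5 and 95.9 FPKM at baseline, 49.3, 52.2 and 36.0 under vehicle, and 33.9, 39.4 and 44.7 under NSC, and it fell by 1.10 and 1.45. For both genes all 6 remnant libraries lay below every baseline library. Cyp2d12, a member of low abundance, had the steepest change of the cluster in both remnants, at -1.70 and -1.86.

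The last genes of the cluster, Cyp2d40 and Cyp2d26, had smaller changes. Cyp2d26 measured 432.2, 473.1 and 470.7 FPKM at baseline, 515.5, 383.0 and 317.3 under vehicle, and 338.4, 304.5 and 315.0 under NSC. It overlapped with baseline under vehicle (log2 fold change -0.20, edgeR adjusted p = 0.439) and fell under NSC (-0.66, adjusted p = 0.0117). Cyp2d40 gave -0.21 under vehicle (adjusted p = 0.329) and fell by 0.52 under NSC (adjusted p = 0.0187). That call was lost without baseline replicate 1 (adjusted p = 0.0589) or 2 (0.0628) or NSC replicate 2 (0.0677), and with library size only. Neither gene passed the direct test of NSC against vehicle (log2 differences -0.46 and -0.31, adjusted p = 0.183 and 0.281).

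**Figure D3:**
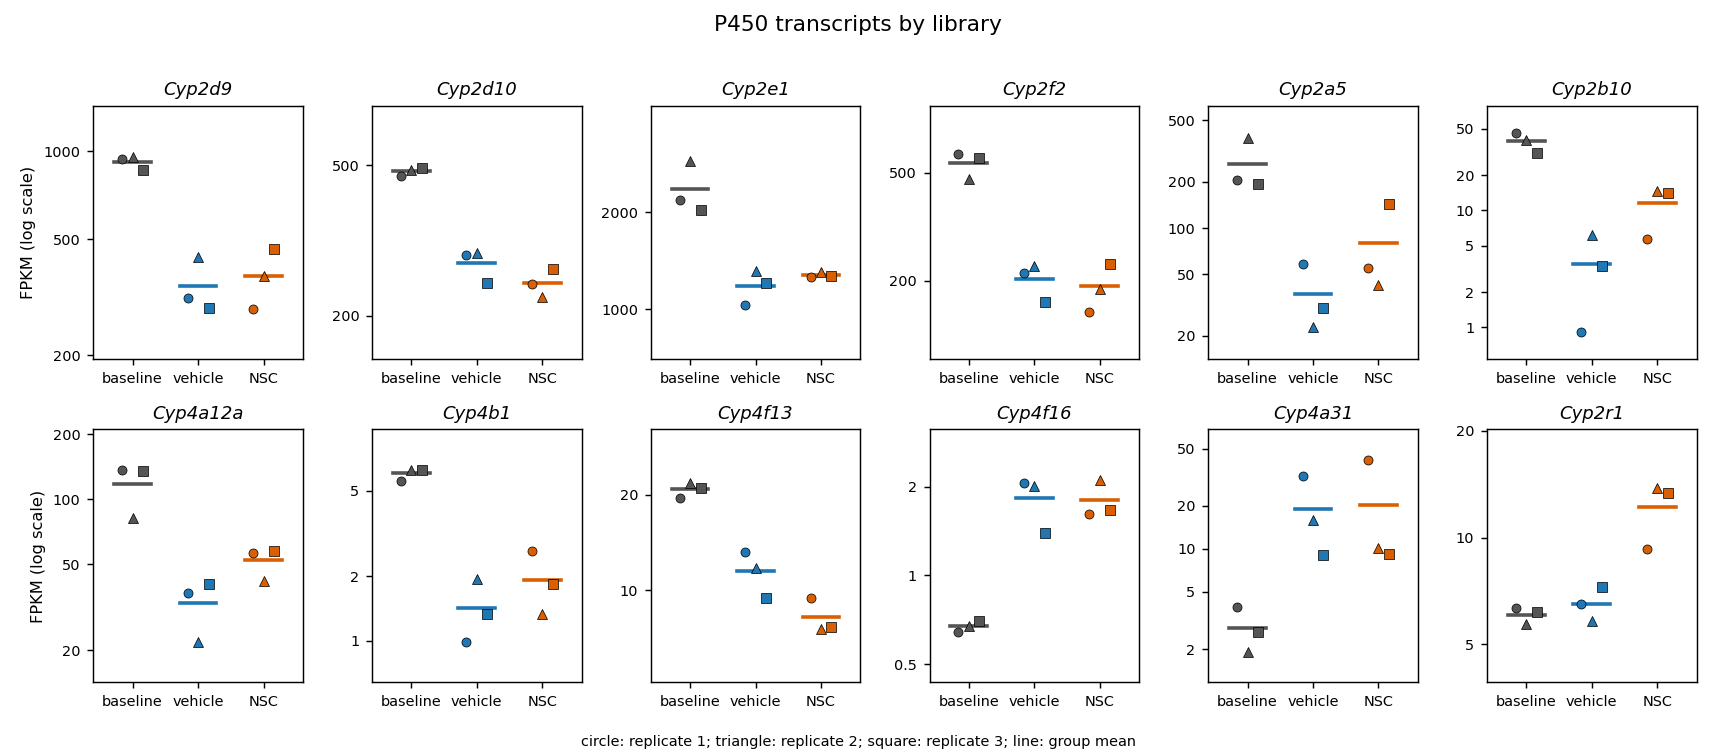
FPKM of 12 P450 genes on a log axis in each library of the baseline, vehicle and NSC groups, with a line at the group mean. For Cyp2d9, Cyp2d10, Cyp2e1, Cyp2f2, Cyp2a5, Cyp2b10, Cyp4a12a, Cyp4b1 and Cyp4f13 all 6 remnant libraries lie below the baseline libraries, and for Cyp4f16 and Cyp4a31 all 6 lie above.

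Cyp2e1 and Cyp2f2 fell in both remnants. Cyp2e1 measured 2180.3, 2899.7 and 2035.0 FPKM at baseline, 1031.7, 1311.7 and 1205.0 under vehicle, and 1264.7, 1310.1 and 1269.4 under NSC. The 2-fold and 2.04-fold decreases (log2 -1 and -1.03, SE 0.21 and 0.21, edgeR adjusted p = 0.00509 and 0.00307) came with a move from rank 1 to rank 2 among the P450 genes, behind Cyp3a11. Cyp2f2, which activates naphthalene, measured 586.3, 474.7 and 564.2 FPKM at baseline, 213.6, 226.9 and 167.6 under vehicle, and 153.9, 186.2 and 231.4 under NSC. It fell by 1.42 and 1.64 on the log2 scale, and its rank went from 5 at baseline to 10 under vehicle and 14 under NSC. An antisense transcript overlaps 274 of its 2025 exonic bases, and the strand setting of the counting is not stated. On the same strand, other genes overlap 186 of 2658 exonic bases of Cyp2d9, 313 of 3808 of Cyp4v3 and 142 of 3061 of Cyp2c29. Some further members have overlaps too, and how reads in shared bases were counted is not stated.

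Cyp2b10 and Cyp2a5 had the largest decreases among members that fell in the vehicle remnant. Cyp2a5, the coumarin 7-hydroxylase, measured 205.3, 383.2 and 192.2 FPKM at baseline, 58.6, 22.7 and 30.2 under vehicle, and 55.1, 43.0 and 142.8 under NSC. It fell 7.22-fold under vehicle (log2 -2.85, SE 0.55, edgeR adjusted p = 0.00756) and 3.58-fold under NSC (log2 -1.84, SE 0.53, adjusted p = 0.0276). Baseline replicate 2 was the highest library, as it was for Dbp. Without it the decrease was 2.46 on the log2 scale under vehicle and 1.45 under NSC, where the call was lost (adjusted p = 0.0866). The NSC call was also lost without NSC replicate 1 (adjusted p = 0.103) or 2 (0.0687), with library size only (0.0533) and without the expression filter (0.0813).

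Cyp2b10, the standard CAR target, measured 45.6, 39.8 and 31.1 FPKM at baseline, 0.912, 6.20 and 3.35 under vehicle, and 5.69, 14.7 and 14.1 under NSC. It fell 10.8-fold under vehicle (log2 -3.43, SE 0.73, edgeR adjusted p = 0.0146). Under NSC its log2 fold change was -1.89 (SE 0.69, adjusted p = 0.0695), with all 3 libraries below baseline, and DESeq2 called it lower (adjusted p = 0.0297). NSC minus vehicle was 1.54 on the log2 scale (SE 0.69, adjusted p = 0.274).

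Other genes of the chromosome 7 cluster (chr7:25802475-27158668) differed. Cyp2a12, a steroid hydroxylase, measured 352.3, 288.6 and 291.8 FPKM at baseline, 387.8, 246.7 and 306.9 under vehicle, and 368.3, 321.5 and 372.9 under NSC, with overlap between all groups and log2 fold changes of -0.01 and 0.05. Cyp2a4, whose coding sequence is 98.45% identical to that of Cyp2a5, stood at 0.883, 2.69 and 1.25 FPKM at baseline. Its calls (log2 -2.07 and -2.30) were both lost without baseline replicate 2 (edgeR adjusted p = 0.129 and 0.0729) or NSC replicate 1 (0.0503 and 0.0631). The vehicle call was also lost without baseline replicate 3, without any 1 vehicle library and without the expression filter (adjusted p = 0.0557 to 0.128). Cyp2g1, an olfactory P450, was at or below 1.06 FPKM in every library, and Cyp2s1 at or below 0.315. Cyp2g1 fell and Cyp2s1 rose under vehicle, and both calls failed when any 1 baseline library was left out.

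Family 4 split within subfamilies. Of 15 tested members, 7 fell and 2 rose under vehicle, and 8 fell and 2 rose under NSC. The medians were -0.84 and -0.90. Cyp4a12a, the male-abundant arachidonic acid ω-hydroxylase, measured 137.2, 81.8 and 135.4 FPKM at baseline, 37.0, 21.8 and 40.5 under vehicle, and 56.7, 42.0 and 57.9 under NSC. It fell by 1.86 on the log2 scale under vehicle (SE 0.25, edgeR adjusted p = 0.000429) and by 1.32 under NSC (SE 0.24, adjusted p = 0.00181). Its relative Cyp4a12b (98.49% of coding bases identical) fell by 1.47 and 0.90, and the summed counts of the pair fell by 1.77 and 1.23.

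Cyp4a10, Cyp4a31 and Cyp4a32 lie in the same chromosome 4 cluster (chr4:115106323-115647723), share at least 96.01% of coding bases and gave different patterns. Cyp4a31 measured 3.95, 1.91 and 2.62 FPKM at baseline, 32.1, 15.8 and 9.08 under vehicle, and 41.6, 10.2 and 9.16 under NSC, a 6.52-fold and a 6.40-fold increase. Cyp4a32 measured 46.3, 22.5 and 28.1 FPKM at baseline, 10.7, 10.5 and 8.61 under vehicle, and 18.3, 8.50 and 6.72 under NSC, with log2 fold changes of -1.71 and -1.68. Both genes were apart from baseline in all 6 remnant libraries, in opposite directions. Cyp4a10 measured 162.9, 95.7 and 132.4 FPKM at baseline, 186.9, 74.1 and 78.4 under vehicle, and 371.5, 52.2 and 59.1 under NSC and overlapped between all groups. How reads that fit more than 1 of these genes were counted is not stated, and with the 3 summed into 1 feature the log2 fold changes were -0.18 and 0.12 (edgeR adjusted p = 0.883 and 0.911). The Cyp4a31 calls were lost in both remnants without baseline replicate 2 (adjusted p = 0.108 and 0.0896) or 3 (0.107 and 0.0879). They were also lost in both without the expression filter (edgeR adjusted p = 0.0779 and 0.0609). Under vehicle the call was also lost without baseline replicate 1 (adjusted p = 0.0688) or vehicle replicate 1 (0.1) or 2 (0.0622).

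Cyp4a14, like Cyp4a10 a textbook PPARα target, spread widely within each group. It measured 385.3, 149.6 and 251.8 FPKM at baseline, 399.4, 114.0 and 174.2 under vehicle, and 839.5, 92.1 and 77.9 under NSC. Replicate 1 was the highest library of each group for both genes. The labels do not say that a replicate number marks a shared day or cage. Among 16 other PPARα target genes 4 fell and none rose in each remnant, Acaa1b and Cpt1b among them in both.

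Cyp4b1, which hydroxylates fatty acids and activates some foreign compounds, measured 5.55, 6.27 and 6.27 FPKM at baseline, 0.983, 1.94 and 1.33 under vehicle, and 2.61, 1.34 and 1.83 under NSC, a decrease of 4.19-fold and 3.46-fold. Cyp4f13 measured 19.6, 21.8 and 21.1 FPKM at baseline, 13.2, 11.8 and 9.48 under vehicle, and 9.44, 7.56 and 7.67 under NSC. No vehicle library overlapped with baseline, and every NSC library lay below the lowest vehicle library. It fell by 0.87 on the log2 scale under vehicle, and its NSC decrease (log2 -1.48, SE 0.15, edgeR adjusted p = 5.25e-05) had the smallest adjusted p of any member. Cyp4f15 fell by 0.84 and 1.20. Cyp4f14, a leukotriene B4 ω-hydroxylase, measured 103.8, 95.5 and 106.4 FPKM at baseline, 59.1, 73.1 and 86.0 under vehicle, and 50.7, 51.2 and 61.2 under NSC. It gave -0.49 under vehicle (adjusted p = 0.0713) and fell by 1.05 under NSC (adjusted p = 0.00138).

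Cyp4f16, in the same chromosome 17 cluster (chr17:32468462-32947402), moved the other way. It measured 0.643, 0.674 and 0.701 FPKM at baseline, 2.07, 2.02 and 1.39 under vehicle, and 1.62, 2.11 and 1.67 under NSC, with all 6 remnant libraries above baseline. The increase was 2.70-fold under vehicle (log2 1.43, SE 0.24, edgeR adjusted p = 0.0017) and 2.44-fold under NSC (log2 1.29, SE 0.24, adjusted p = 0.0021). Both calls were kept when any 1 library was left out. Cyp4v3, the mouse counterpart of human CYP4V2, fell by 0.91 under vehicle (adjusted p = 0.00417). Its NSC decrease of 0.55 (adjusted p = 0.0329) failed without baseline replicate 1 (adjusted p = 0.148) or 3 (0.0817) or NSC replicate 1 (0.0803) or 2 (0.0763). It also failed with library size only and when only the compared groups were fitted.

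No member of the Cyp2c subfamily passed in either remnant with all libraries in the edgeR fit. Of its 15 members 13 were tested, and the median log2 fold change was 0.05 in both remnants. Summed Cyp2c FPKM was 1792.6 ± 246.6 at baseline, 1583.5 ± 424.9 under vehicle and 2136.8 ± 581.0 under NSC (SD, n = 3), with overlapping spreads. Cyp2c70, which hydroxylates bile acids to muricholic acids, measured 167.9, 171.1 and 126.4 FPKM at baseline, 158.2, 344.6 and 334.7 under vehicle, and 190.9, 308.5 and 246.1 under NSC. Its log2 fold change under vehicle was 0.86 (SE 0.33, edgeR adjusted p = 0.077), and DESeq2 called it higher (adjusted p = 0.0328). DESeq2 also called Cyp2c55 (2.43, adjusted p = 0.0496) and Cyp2c39 (1.25, adjusted p = 0.0212) higher under NSC. After the GC correction Cyp2c54 passed under vehicle (-0.74, adjusted p = 0.0472) and Cyp2c67 under NSC (-0.70, adjusted p = 0.0379). Leaving out a library, fitting only the compared groups or scaling by library size only also gave calls in this subfamily, for Cyp2c39, Cyp2c40, Cyp2c54, Cyp2c55, Cyp2c65, Cyp2c69 and Cyp2c70.

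The Cyp3a subfamily had 1 call in each remnant among 8 tested members. Cyp3a25 measured 456.6, 272.1 and 379.8 FPKM at baseline, 224.8, 139.3 and 155.6 under vehicle, and 278.6, 277.7 and 303.0 under NSC. It fell by 1.12 on the log2 scale under vehicle (SE 0.21, edgeR adjusted p = 0.003), with no overlap, and gave -0.51 under NSC (adjusted p = 0.0781). The NSC value passed after a correction for GC content (-1.05, adjusted p = 0.00438) and without baseline replicate 2 (-0.69, adjusted p = 0.0271). Cyp3a59, 97.48% identical to it over coding bases, measured 19.4, 12.9 and 19.4 FPKM at baseline, 32.2, 18.5 and 20.4 under vehicle, and 31.8, 28.9 and 46.1 under NSC and rose by 0.91 under NSC (SE 0.23, adjusted p = 0.00975). That call was lost after a correction for GC content (0.37, adjusted p = 0.303). With the pair summed, the log2 fold changes were -1.01 under vehicle (adjusted p = 0.00551) and -0.41 under NSC (adjusted p = 0.153).

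Promoter letters were read for the members, with those that fell in both remnants set beside the other tested members. RefSeq start sites on GRCm38.p6 gave windows of 250 bases before to 50 bases after the start for 66 of the 82 members. The HNF4A direct repeat core CAAAGTCCA, on either strand, was in the window of 10 members, all of them Cyp2c or Cyp3a genes, and in 0.475% of 32851 windows of all genes. Among the 13 members with a window that fell in both remnants 0 held it, and among 37 other tested members, whatever their calls, 9 did. No Cyp2c or Cyp3a gene fell in both remnants, so this split restates subfamily. Only exact letters were counted. The Cyp2a5 and Cyp2a4 stretches below hold CAAAGTCCG, which differs by 1 base, and such near matches were not counted in any set. The HNF3 core TGTTTAC was in 9 members and 3.65% of all windows, with 0 and 8 members in the same sets. These are matches of letters in genes that share ancestors, and they do not mark bound sites. The 120 bases before the start are shown for members of both kinds, 5′ to 3′ on the strand of the gene, first for Cyp3a and Cyp2c genes with CAAAGTCCA in capitals.
Cyp3a11 (chr5:145879855-145879974, minus strand): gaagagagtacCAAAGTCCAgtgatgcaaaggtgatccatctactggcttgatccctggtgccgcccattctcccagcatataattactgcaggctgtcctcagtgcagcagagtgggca
Cyp3a41a (chr5:145720137-145720256, minus strand): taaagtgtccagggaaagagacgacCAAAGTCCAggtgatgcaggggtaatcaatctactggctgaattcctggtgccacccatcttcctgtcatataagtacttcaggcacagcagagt
Cyp2c70 (chr19:40187287-40187406, minus strand): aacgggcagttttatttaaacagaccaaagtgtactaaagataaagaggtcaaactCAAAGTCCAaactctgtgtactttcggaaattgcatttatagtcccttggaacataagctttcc
Cyp2c69 (chr19:39886770-39886889, minus strand): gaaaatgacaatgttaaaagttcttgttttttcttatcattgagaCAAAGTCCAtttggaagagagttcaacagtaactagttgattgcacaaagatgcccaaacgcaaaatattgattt
Cyp2c40 (chr19:39812815-39812934, minus strand): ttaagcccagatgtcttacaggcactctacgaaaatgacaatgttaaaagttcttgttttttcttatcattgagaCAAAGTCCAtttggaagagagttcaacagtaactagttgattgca
In Cyp2d9 and Cyp2d10, which fell, the window held neither CAAAGTCCA nor the D-box letters searched, and the capitals mark TTTATA, the reverse complement of TATAAA.
Cyp2d9 (chr15:82452257-82452376, plus strand): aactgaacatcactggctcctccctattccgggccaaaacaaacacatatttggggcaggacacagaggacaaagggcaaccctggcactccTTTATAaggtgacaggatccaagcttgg
Cyp2d10 (chr15:82407195-82407314, minus strand): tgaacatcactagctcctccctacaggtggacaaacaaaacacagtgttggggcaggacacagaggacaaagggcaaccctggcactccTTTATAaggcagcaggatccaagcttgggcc
A form of the D-box, TTATGCAA on either strand, was in 6 members (Cyp2a4, Cyp2a5, Cyp2b10, Cyp2b19, Cyp2b23 and Cyp4f14) and in 0.743% of all windows. D-boxes are the target of the DBP, TEF and HLF factors. Of the 13 members with a window that fell in both remnants 2 held this form, and of the 37 other tested members 2 did. Its reverse complement TTGCATAA is shown in capitals in the 3 of the 6 members that fell under vehicle. A part of DBP in the P450 values was not tested.
Cyp2a5 (chr7:26835219-26835338, plus strand): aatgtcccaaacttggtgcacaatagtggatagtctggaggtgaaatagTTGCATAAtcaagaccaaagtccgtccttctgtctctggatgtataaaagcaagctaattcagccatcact
Cyp2a4 (chr7:26307072-26307191, plus strand): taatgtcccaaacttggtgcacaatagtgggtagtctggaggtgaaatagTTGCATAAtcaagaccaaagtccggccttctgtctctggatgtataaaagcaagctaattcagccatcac
Cyp2b10 (chr7:25897538-25897657, plus strand): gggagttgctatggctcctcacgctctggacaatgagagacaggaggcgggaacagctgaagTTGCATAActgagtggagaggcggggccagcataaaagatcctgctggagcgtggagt
The other letters searched, on either strand, were found as follows. TATAAA was in 29 members and 13.6% of all windows, and CCAAT in 30 and 37.4%. The AHR core GCGTG was in 14 members and 32.4% of windows, and the nuclear receptor hexamers AGGTCA and AGTTCA in 19 and 11 members and in 16.3% and 14.0%. The HNF1 core GTTAAT was in 10 members and 7.10% of windows, and the STAT site TTCNNNGAA in 4 and 8.30%. In the 13 members that fell in both and the 37 others, TATAAA was in 7 and 20 and CCAAT in 8 and 17. In the same sets, GCGTG was in 2 and 8, AGGTCA in 3 and 10, and AGTTCA in 3 and 7. GTTAAT was in 3 and 5 there, and TTCNNNGAA in 2 and 0. No member window held TTATGTAA (0.938% of all windows), TTGCGCAA (0.183%) or the direct repeat of AGGTCA with a spacer of 1 base (0.0396%).

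In family 1, Cyp1a2, which demethylates caffeine, was the only abundant member. It measured 281.2, 282.9 and 246.0 FPKM at baseline, 71.8, 167.6 and 128.5 under vehicle, and 43.7, 226.9 and 331.5 under NSC. All vehicle libraries lay below baseline, while the NSC libraries lay on both sides of it. Neither comparison passed (log2 -1.12 and -0.55, edgeR adjusted p = 0.274 and 0.559). When NSC replicate 1 was left out of the fit, the vehicle decrease passed (-1.11, SE 0.31, adjusted p = 0.0252). The vehicle decrease also passed when only the compared groups were fitted. Cyp1a1 was under 1 FPKM everywhere, and its call under vehicle (-1.26, adjusted p = 0.0289) failed without baseline replicate 1 or 2 or any 1 vehicle library (adjusted p = 0.0524 to 0.113).

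Cyp1b1, mostly an extrahepatic gene, measured 0.0473, 0.0862 and 0.0813 FPKM at baseline, 0.355, 0.273 and 0.3 under vehicle, and 0.349, 0.102 and 0.114 under NSC. It rose by 2.08 on the log2 scale under vehicle (SE 0.48, edgeR adjusted p = 0.00851) and gave 1.24 under NSC (adjusted p = 0.0664). The stellate cell markers, of which 6 of 8 rose under vehicle and 2 under NSC, moved with it. Their summed levels were 120.6, 121.0 and 119.4 CPM at baseline, 386.3, 375.4 and 252.9 under vehicle, and 275.2, 128.6 and 134.4 under NSC. Their part in the Cyp1b1 values was not tested.

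In the Cyp2j subfamily members of low abundance fell, 2 of 4 tested under vehicle and 1 under NSC. Cyp2j5, an arachidonic acid epoxygenase and the most abundant, measured 272.7, 238.1 and 226.3 FPKM at baseline, 199.6, 150.3 and 234.3 under vehicle, and 274.8, 222.1 and 210.9 under NSC, with log2 fold changes of -0.35 and -0.20 that did not pass. A correction for GC content made both pass (log2 -0.57 and -0.65, edgeR adjusted p = 0.0146 and 0.007). Cyp2j9 measured 5.59, 3.92 and 3.98 FPKM at baseline, 1.13, 1.66 and 0.889 under vehicle, and 2.12, 2.45 and 1.52 under NSC, and it fell by 1.86 and 1.28. Cyp2j8 was at or under 0.339 FPKM throughout, and its decrease under vehicle failed without any 1 of the 3 baseline libraries.

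NSC was then compared with vehicle at 40 h. No member passed in either direction (edgeR, 64 tested), where 0.0% of all genes rose and 0.0399% fell, and 8 of the 64 members had an unadjusted p under 0.05, where 19.5% of all genes did. By non-overlap, 4 members lay higher and 4 lower under NSC, where 10.3% and 12.2% of all genes did. DESeq2 called 1 member higher and 1 lower. The higher one was Cyp2r1, a vitamin D 25-hydroxylase, which measured 6.32, 5.70 and 6.15 FPKM at baseline, 6.47, 5.81 and 7.23 under vehicle, and 9.29, 13.8 and 13.4 under NSC. All NSC libraries lay above both other groups, and NSC minus vehicle was 0.78 on the log2 scale (SE 0.19, edgeR adjusted p = 0.0898, DESeq2 adjusted p = 0.0112). Against baseline Cyp2r1 rose by 0.87 under NSC (edgeR adjusted p = 0.00402) and gave 0.09 under vehicle (adjusted p = 0.764). A GC correction took the NSC value to 0.24 (adjusted p = 0.356). The lower one was Cyp4f13 (-0.61, SE 0.15, edgeR adjusted p = 0.0898, DESeq2 adjusted p = 0.0162).

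The NSC libraries differed among themselves, and several inducible P450 genes were among the members with a wide spread. The highest library exceeded the lowest by over 3-fold for 21 members in the NSC group, 7 in the vehicle group and 5 at baseline. The 21 include members of low abundance, such as Cyp4f39, Cyp2b9 and Cyp2s1. The same count was not made over all tested genes, so whether this spread is particular to P450 genes is not known. Cyp3a11 measured 2973.0, 1543.3 and 2260.5 FPKM at baseline, 2066.0, 1568.2 and 2325.3 under vehicle, and 1556.4, 4318.2 and 5643.5 under NSC. Cyp2c55, a PXR- and CAR-responsive gene, measured 5.76, 3.37 and 6.68 FPKM at baseline, 4.76, 7.14 and 4.73 under vehicle, and 1.48, 29.9 and 61.9 under NSC. Cyp2c29, an arachidonic acid epoxygenase induced through CAR, measured 756.1, 602.6 and 700.6 FPKM at baseline, 310.6, 637.0 and 614.8 under vehicle, and 356.9, 1009.0 and 1289.1 under NSC. For these genes and for Cyp1a2, replicate 1 was the lowest NSC library and replicates 2 and 3 lay above all vehicle libraries.

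Other members showed the opposite layout. Cyp4a14 and Cyp4a10 were highest in NSC replicate 1 of all 9 libraries, as given above. Cyp2c69 measured 17.6, 11.9 and 31.1 FPKM under vehicle and 26.0, 1.02 and 1.15 under NSC, and Cyp2c40, 97.9% identical to it over coding bases, measured 9.25, 8.16 and 16.8 under vehicle and 12.8, 2.59 and 3.11 under NSC. Cyp2c38 stood at 27.4, 11.8 and 18.9 FPKM under vehicle and 49.6, 8.27 and 10 under NSC. For all of these, replicate 1 was the highest NSC library. Cux2, a regulator of sex-biased liver genes, had 5.38, 10 and 0.775 CPM under vehicle and 5.52, 0.034 and 0.157 under NSC, with the same NSC library highest. Under vehicle the layout differed, since Cux2 was lowest in replicate 3, the highest vehicle library for Cyp2c69 and Cyp2c40. The part of Cux2 in the P450 values was not tested.

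**Figure D4:**
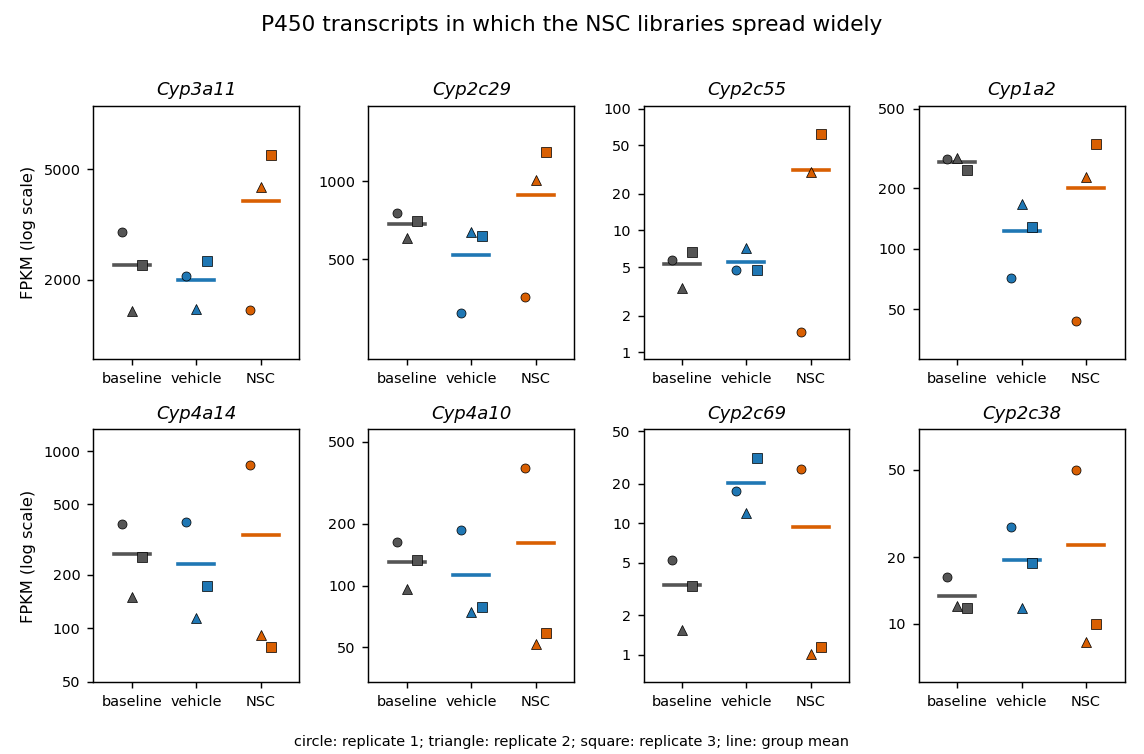
FPKM of 8 P450 genes on a log axis in each library of the 3 groups, with a line at the group mean and a symbol for each replicate number. NSC replicate 1 (circle) lies apart from NSC replicates 2 and 3 in every panel, below them for Cyp3a11, Cyp2c29, Cyp2c55 and Cyp1a2 and above them for Cyp4a14, Cyp4a10, Cyp2c69 and Cyp2c38.

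Leaving out NSC replicate 1 changed the comparison with vehicle, for all genes and for the P450 genes. Of 15390 genes then tested 994 passed, against 6 of 15024 with all libraries, among them 4 members that rose and 5 that fell. Cyp2c55 rose by 2.91 (SE 0.41, edgeR adjusted p = 0.00951), Cyp3a11 by 1.22 (SE 0.27, adjusted p = 0.0195) and Cyp2r1 by 0.96 (SE 0.16, adjusted p = 0.00433). The fourth, Cyp2c65, rested on 26 and 11 counts in NSC replicates 2 and 3 against at most 5 in any other library. On the log2 scale Cyp2c69 fell by 4.31, Cyp2c40 by 2.10, Cyp1b1 by 1.62, Cyp2c38 by 1.16 and Cyp4f13 by 0.70. No label sets NSC replicate 1 apart from replicates 2 and 3, and these values describe 2 libraries against 3. Its omission is set out because these same data showed it apart. Adjusted p-values without it, here and against baseline, therefore describe the remaining libraries and are no independent test.

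The comparisons with baseline changed as well when NSC replicate 1 was left out. Under NSC 7 members gained a call and 3 lost theirs (Cyp2a4, Cyp2a5 and Cyp4v3). Cyp2c55 rose by 3.0 on the log2 scale (SE 0.41, edgeR adjusted p = 0.00128), Cyp3a11 by 1.03 (SE 0.27, adjusted p = 0.0103) and Cyp2c65 by 3.31 (adjusted p = 0.0103). Cyp2c40 fell by 1.61 (SE 0.36, adjusted p = 0.00876), Cyp4a10 by 1.34 (SE 0.37, adjusted p = 0.0226), Cyp2d34 by 1.62 and Cyp2d37-ps by 1.04. Under vehicle the library enters only through the shared estimate of the spread and the filter. There 5 members gained a call (Cyp1a2, Cyp2b13, Cyp2c39, Cyp2c69 and Cyp2u1) and Cyp2a4 lost its call. Cyp1a2, Cyp2c39, Cyp2c69 and Cyp2u1 also passed under vehicle when only the compared groups were fitted.

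By count of calls, electron partners and regulators of the P450 enzymes fell more often than they rose. P450 oxidoreductase (Por), the shared electron donor, measured 306.9, 775.8 and 279.6 CPM at baseline, 319.3, 385.5 and 165.1 under vehicle, and 185.2, 145.2 and 149.8 under NSC, where it fell by 1.5 (SE 0.43, edgeR adjusted p = 0.024). Baseline replicate 2 was the high library again, and without it the decrease was 0.87 (adjusted p = 0.0425). Without NSC replicate 1 the NSC value was -1.62 and did not pass (adjusted p = 0.0658). Of 6 electron transfer genes, 3 fell under vehicle and 4 under NSC, and Cyb5b, Cyb5r3 and Pgrmc2 were among them each time. The summed level of the 6 was 1342.1 ± 45.1 FPKM at baseline, 1098.8 ± 148.2 under vehicle and 1420.2 ± 265.2 under NSC (SD, n = 3). In CPM the sums were 3453.1 to 3902.1, 2726.7 to 2882.8 and 2699.7 to 3774.9, so NSC overlapped with baseline. Of 12 heme genes 1 rose and 1 fell under vehicle, and 2 rose and 2 fell under NSC. Hmox1, which breaks heme down, rose by 1.51 and 1.30. Alas1, the rate-limiting enzyme of heme synthesis, did not pass (-0.95 and -0.86, adjusted p = 0.0712 and 0.077).

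Among 23 regulators of P450 genes 11 fell in each remnant and none rose, with medians of -0.64 and -0.95. Nr1i2, the gene of PXR, fell by 0.87 and 0.95, and Nr1i3, the gene of CAR, by 0.98 and 1.22. Cebpa, a hepatocyte transcription factor, had 209.1, 220.6 and 233.4 CPM at baseline, 55.9, 76.0 and 94.9 under vehicle and 70.3, 79.5 and 115.6 under NSC. Stat5b, which carries growth hormone signals to sex-biased P450 genes, fell by 0.87 and 1.18. Ppara gave -1.07 (edgeR adjusted p = 0.0481) and -0.95 (adjusted p = 0.056). Ahr and Hnf4a did not pass in either remnant (log2 0.36 and 0.28 for Ahr, 0.06 and -0.21 for Hnf4a).

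Lists of liver zones and sex bias were read beside these. Of 8 pericentral P450 genes, Cyp2e1 and Cyp2a5 fell in both remnants and the others did not pass. Of 10 other pericentral genes, Axin2, Lgr5, Lect2 and Tbx3 rose in both. Of 10 periportal genes 5 fell under vehicle and 8 under NSC. Of 4 P450 genes more abundant in male liver, Cyp2d9, Cyp4a12a and Cyp4a12b fell in both, and the summed level of the 4 was 1314.7 ± 62.2 FPKM at baseline, 584.2 ± 26.3 under vehicle and 680.8 ± 60.7 under NSC (SD, n = 3). Of 8 tested genes more abundant in female liver, Cyp2a4 fell in each remnant and the others did not pass. Of 16 acute phase genes 11 rose under vehicle and 12 under NSC.

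Other markers of the tissue were counted in the same way. Of 12 hepatocyte markers 5 fell in each remnant, among them Apoa2 and Tat, while 2 rose under vehicle and 1 under NSC. Of 6 tested cholangiocyte markers 4 and 3 rose, and their summed level was 50.6 to 56.0 CPM at baseline, 85.1 to 126.6 under vehicle and 89.2 to 131.5 under NSC. Of 7 macrophage markers 2 rose under vehicle and 5 under NSC, with 146.1 to 212.5 CPM, 143.4 to 262.4 and 285.6 to 457.1 in the 3 groups. Of 5 tested neutrophil markers 1 and 3 rose, and of 7 endothelial markers 2 and 1 fell. Of all tested genes 12.7% rose and 11.0% fell under vehicle, and 18.2% rose and 16.5% fell under NSC. These shares stand beside the counts of every gene list above, and counts over lists this short are a description only. Whether the makeup of the tissue had a part in the P450 values was not tested.

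The 18 members that were not tested had at most 26 counts in any library. Of these, 8 had 0 counts in all 9 libraries (Cyp2j7, Cyp2j11, Cyp2j12, Cyp2t4, Cyp2w1, Cyp2b19, Cyp4a29 and Cyp4a30b), which allows up to 0.117 CPM in the shallowest library, for counting error only. Cyp2b13, a female-biased gene, had 20, 8 and 10 counts at baseline, 1, 2 and 0 under vehicle and 0, 3 and 5 under NSC. Of all 82 members, 26 share at least 95% of coding bases with another member, and their separate values are uncertain to that extent. The P450 genes outside families 1 to 4 numbered 19, of which 12 were tested, and Cyp27a1, Cyp8b1 and Cyp46a1 fell in both remnants.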

How the data were processed

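Poly(A) RNA from 9 liver samples was sequenced with a stranded mRNA kit. Per the labels and methods, the authors aligned reads with STAR 2.6.1 and counted them per gene with featureCounts of Subread 1.5.1. The deposited counts are raw read counts per gene, and the deposited FPKM values are the authors' own scaling of those counts by gene length and total. FPKM recomputed from the counts differed by at most 4.96e-10 in relative terms. The labels name hg38 as the build, but the gene identifiers and positions are those of mouse, and 82 of 82 members have an identifier in GENCODE M21 (GRCm38). The strand setting and the handling of reads that fit several genes are not given in the sources used here.

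Counts of the 9 libraries were fitted with edgeR 4.0.16 (R 4.3.3; TMM normalization, filterByExpr, robust quasi-likelihood test, 1 coefficient per group), and p-values were adjusted by the Benjamini-Hochberg method over 15024 genes. A gene was called at an adjusted p under 0.05. Standard errors (SE) were taken as |log2 fold change|/√F. Non-overlap was judged on TMM-scaled CPM. All libraries of a group differed by more than sampling noise. The fit was tested on simulated counts with 200 changed genes in the vehicle group. At 2-fold it recovered 78 of them with 4 false calls, at 4-fold 171 with 16, and at 8-fold 196 with 11. At 4-fold the share of false calls was above the rate at which genes were called. Only vehicle against baseline was simulated, so the values do not extend to NSC against vehicle. Many 2-fold changes would therefore be missed. With no gene changed it made 0 calls. Promoter windows came from RefSeq on GRCm38.p6, and coding identity from GENCODE M21. DESeq2 1.42.0, other normalizations and filters, GC correction, merged close paralogs, the replicate number as a block and leaving out each library served as alternatives. The members and gene lists were chosen with earlier results of these data known. Named genes were a fixed list of P450 genes, further members past the threshold by smallest adjusted p, the most abundant member of each subfamily, and for other lists up to 3 called genes plus Por, Alas1, Nr1i2, Nr1i3, Ahr and Ppara. Dbp, Cux2, Stat5b, Hnf4a, Cyp2c65, Cyp2b13 and the genes named only in marker and zone lists were chosen after their values were seen. Samples carry no other technical label, so no batch could be modeled. Values of a few genes in the fixed lists are not reported here.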

Additional observations from a re-analysis of the deposited data

How the results depend on the processing

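The direction of every median against baseline was kept, and no called gene reversed: over the named members and alternatives, 2598 values kept their side of the threshold, 52 newly passed and 62 no longer passed. Under vehicle, 4 members rose and 22 fell. With at least 10 counts in every library 2 rose, and at an adjusted p under 0.01 2 rose. With an absolute log2 fold change over 1.5 as well, 10 fell under vehicle, and under NSC 1 rose and 7 fell. Under NSC, 4 rose and 20 fell, and 2 rose after GC correction and 2 with close paralogs merged, an alternative added after seeing the data. The median under NSC (-0.40) was -0.27 with library size only, which moved the median of all genes by 0.139, -0.52 without the expression filter, -0.63 after GC correction and -0.52 with close paralogs merged. For NSC against vehicle, 0 members rose and 0 fell. Without the expression filter 1 rose, and DESeq2 called 1 higher and 1 lower. The median there (0.08) was 0.20 with library size only, where the median of all genes moved by 0.126, and -0.01 after GC correction. Beyond what each alternative's construction shows, the cause was not tested.

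Leaving out 1 library at a time gave 2 to 6 members higher and 18 to 24 lower under vehicle, with medians from -0.64 to -0.30. Under NSC it gave 3 to 7 higher and 17 to 22 lower, with medians from -0.55 to -0.26. For NSC against vehicle it gave 0 to 4 higher and 0 to 5 lower, with medians from 0.02 to 0.17, and the upper counts came without NSC replicate 1.

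With the replicate number as a block, 4 members rose and 21 fell under vehicle, 4 rose and 19 fell under NSC, and 0 passed between NSC and vehicle, where the median was 0.0. Both Cyp2a4 calls, the Cyp2a5 call under NSC and the Cyp2j8 call under vehicle did not pass under the block, and Cyp4f14 under vehicle and Cyp2b9 under NSC newly passed. The labels do not say what a number stands for, and correlations of same-numbered libraries ran from -0.083 to 0.147. As a hint from the data, 8 of 9 libraries correlated best, among libraries of other groups, with their own number. Whether a number marks a shared mouse, day or cage is not known, and the main fit does not model it. Merging by protein identity was not run, because no protein table was used here. With 3 libraries a group, a member whose p missed the threshold is not shown to be unchanged.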
